A study of Mus musculus with 32 samples.

Results

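The 10 genes described here encode the LIF and STAT3 pathway of mouse embryonic stem cells (mESCs): the ligand Lif, the receptor chains Lifr and Il6st, the kinases Jak1 and Jak2, the transcription factor Stat3, the feedback inhibitor Socs3, and the STAT3 target genes Pim1, Pim3 and Gbx2. They were chosen by symbol from the RNA-seq tables, in which each of the 10 was found among 24028 gene symbols. RNA-seq was carried out on 1 library of WT mESCs and 1 library labelled Eed-/-, out of 32 samples in the series. EED is a core subunit of the Polycomb complex PRC2, which deposits H3K27me3, and the study asked what its loss does to DNA methylation valleys (DMVs), the long unmethylated domains that lie at many developmental genes, and to the expression of genes in them. The labels give the line TT2 for both RNA-seq samples, whereas Eed-/- samples of the other assays carry another strain label, which is the name of an Eed allele. Which mutation the cells of the RNA-seq library carry is not stated in the labels of that library. Both cultures were grown with serum and with LIF added to the medium, on gelatin-coated plates, so the cytokine was supplied from outside in both. With 1 library per genotype there was no spread between cultures, and no test of genotype was possible. The differences reported are between these libraries.

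LIF binds its receptor LIFR, which joins with gp130, the product of Il6st, and the Janus kinases attached to the receptor tails then phosphorylate STAT3. Phosphorylated STAT3 enters the nucleus and raises transcription of its targets, among them Socs3, whose protein binds gp130 and the kinases and damps the signal. In mESCs kept in serum this pathway sustains self-renewal, and Pim1, Pim3 and Gbx2 are known to sustain self-renewal when overexpressed. The values below are RNA levels, and neither phosphorylation of STAT3 nor protein was analysed here.

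The authors deposited FPKM, in which the fragments of a gene are scaled to the length of its transcript and to the size of the library, and levels are compared between genes on this length-scaled unit. Changes are given as differences of log2(FPKM + 1), Eed-/- minus WT, after quantile normalization. On this scale, changes of weakly expressed genes are understated. The steps between low values corresponded to about 7210000 fragments in WT against 6360000 in the library labelled Eed-/-. Intervals are exact (Clopper-Pearson) 95% intervals of the log2 ratio of fragment numbers, without a pseudocount and scaled to the median ratio of the genes whose FPKM averaged at least 2. They cover counting error only, and PCR reads without molecular identifiers are not independent molecules. Eed itself, on mm9 chr7:97103166-97129493, had an FPKM of 63.0 in WT against 70.9 in the library labelled Eed-/-, an interval of 0.19 to 0.47. Its RNA was therefore not lower in that library, and the level is a check of the labels only if the mutation removes the RNA. The study checked the loss of Eed by H3K27me3 instead, with western blots and ChIP-seq, and reported it as borne out, in data not analysed here. Genes of whole chromosomes were also displaced as groups, with median changes of -0.29 on chromosome 1 (752 genes), -0.38 on chromosome 8 (702 genes), 0.46 on chromosome X (518 genes) and 1.77 on chromosome Y (6 genes), beside 0.01 over all genes used. Of the 10 genes, Gbx2 is on chromosome 1 and none is on chromosome 8, X or Y.

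Both libraries carried the defining RNAs of pluripotent cells. In what follows, sums are of normalized FPKM, and single genes are given as deposited unless stated. Pou5f1, the gene of OCT4, had an FPKM of 393 in WT against 373 in the library labelled Eed-/-, Nanog 114 and 176, and Sox2 196 and 157. The direction of Pou5f1 depended on scaling, since its normalized FPKM was 367 and 404. The summed normalized FPKM of 8 pluripotency markers was 1320 and 1750, with 5 above 0 in change and 3 below. Markers of other cells that an mESC culture can hold differed as well, and these values accompany every comparison that follows. The summed level of 9 primitive endoderm markers was 14.8 in WT against 60.8 in the library labelled Eed-/-, with all 8 used above 0 in change, a median of 0.63, and 2 of them (Lama1 and Col4a1) at least 2-fold higher. Among defining genes of that lineage, Gata4 was at 0.431 and 1.35, Gata6 at 0.184 and 0.514, and Sox17 at 0 and 0.449. These levels were low, from about 10.0 and 27.7 fragments for Gata4, 3.99 and 9.85 for Gata6, and 0 and 8.42 for Sox17. The interval of Gata6, -0.13 to 3.79, held 0. Dab2 was nearly equal in both libraries at 0.499 and 0.515, and Foxa2, too low to be used, was at 0.0731 and 0. For 7 trophoblast markers the sums were 58.2 and 20.3, with 2 of 6 used (Tfap2c and Krt18) at least 2-fold lower. Tfap2c alone had a normalized FPKM of 37.4 and 9.69. Of the 6, 5 were below 0 in change, with Cdx2 at 0.562 and 0.0788, and 1 above, Hand1 at 0 and 0.541. The values of Cdx2 stood for about 8.44 and 1.04 fragments, and its interval, -8.13 to 0.24, held 0. Those of Hand1 stood for 0 and about 5.93 fragments. Elf5 was at 0 in both libraries. For 6 epiblast and gastrula markers the sums were 6.02 and 15.5, with 2 of 5 used (Otx2 and Eomes) at least 2-fold higher. Of the 5, 3 were above 0 in change and 2 below, namely Pou3f1 at 3.08 and 1.92 and Mixl1 at 0.590 and 0.367. Mixl1 rested on about 8.99 and 4.94 fragments, and its interval, -2.43 to 1.23, held 0. Otx2 alone had a normalized FPKM of 1.73 and 10.4, and Fgf5 was at 0 in WT against 0.133 in the other library. For 8 feeder fibroblast markers the sums were 2.79 and 7.69, with 1 of 3 used (Thy1) at least 2-fold higher, a median change of -0.36, Dcn at 0 in both libraries, Col3a1 at 0.0772 and 0, and Postn at 0.0456 and 0. Without Thy1 the feeder sums were 1.84 and 0.285, since Acta2 was at 1.10 and 0.0648 and Col1a1 at 0.460 and 0.137. The largest changes in the 5 lists were those of Zfp42 (1.30), Lama1 (2.06), Tfap2c (-1.85), Otx2 (2.07) and Thy1 (2.10), and the other markers named here were picked after their values were seen. The part of these cells in the results was not tested, and in bulk samples fewer cells of a type and less RNA per cell cannot be told apart.

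The promoters of the 2 genes with the largest negative changes, Pim1 and Lif, and the STAT-type site of Socs3 are shown because the genes differ in CpG density and in whether they lie near a DMV. The sequences are RefSeq promoters on build GRCm38.p6, written 5′ to 3′ on the strand of the gene. The first is the 250 bases before the upstream start of Pim1, chr17:29490535-29490784 on the plus strand, with 36 CpG dinucleotides in capitals. The second is the same stretch of Lif, chr11:4257318-4257567 on the plus strand, with 6 CpG dinucleotides in capitals. The third is a stretch of the Socs3 promoter, chr11:117969502-117969530 on the minus strand, with a match to TTCNNNGAA in capitals, the palindromic letters that STAT dimers are known to bind.
Pim1: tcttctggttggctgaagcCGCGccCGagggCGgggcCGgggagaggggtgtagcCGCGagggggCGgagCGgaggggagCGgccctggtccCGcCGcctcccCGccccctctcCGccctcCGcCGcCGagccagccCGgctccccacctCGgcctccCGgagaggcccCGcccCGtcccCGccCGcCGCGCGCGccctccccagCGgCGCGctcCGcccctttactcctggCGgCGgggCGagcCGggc
Lif: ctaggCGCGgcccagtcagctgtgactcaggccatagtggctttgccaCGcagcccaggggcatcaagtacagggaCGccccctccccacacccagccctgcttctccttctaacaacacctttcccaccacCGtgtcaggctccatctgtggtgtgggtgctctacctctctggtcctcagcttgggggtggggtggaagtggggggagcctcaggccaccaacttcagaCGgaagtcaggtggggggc
Socs3: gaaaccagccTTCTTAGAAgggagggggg

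Pim1 was the gene that differed most. It encodes a serine/threonine kinase, lies on mm9 chr17:29627757-29632390 on the plus strand, and has 1 annotated transcript. Its deposited FPKM was 50.5 in WT against 14.7 in the library labelled Eed-/-, a 3.44-fold lower level in the latter. The values stood for about 652 and 167 fragments. The change was -1.54, below that of all but 1.04% of the genes used, and the interval ran from -1.88 to -1.38. Pim1 was the second highest of the 10 genes in WT, at percentile 91.0 of the levels of the genes used, and at percentile 75.3 in the other library. The genes of chromosome 17 had a median change of 0.04. The gene Gm16912, which has no value here, overlaps it on the opposite strand.

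Pim3, a kinase of the same family on chr15:88692616-88696150, plus strand, was lower by far less. Its FPKM was 46.5 in WT against 32.3 in the library labelled Eed-/-, with a change of -0.32 and an interval of -0.54 to -0.20. Within the WT library Pim1 and Pim3 were at similar levels, with a ratio of FPKM of 1.08, whereas within the library labelled Eed-/- the ratio was 0.454. This comparison inside a library does not depend on scaling between libraries. The third family member, Pim2 on chromosome X, was at 6.31 and 6.16, so the order of the family was Pim1, Pim3, Pim2 in WT and Pim3, Pim1, Pim2 in the other library.

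Gbx2 encodes a homeodomain transcription factor and lies on chr1:91824537-91829865, minus strand. Its FPKM was 17.3 in WT against 12.2 in the library labelled Eed-/-, with a change of -0.32 and an interval of -0.56 to -0.14. The median change of the genes of its chromosome was -0.29, so Gbx2 lay close to its neighbours on the same chromosome. The paralog Gbx1 was low in both, at 1.08 and 0.608. Pim1, Pim3 and Gbx2 were thus all lower in the library labelled Eed-/-, by unequal amounts, whereas the interval of Socs3, also a STAT3 target, held 0.

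Lif, on chr11:4157560-4172517, plus strand, was the only ligand gene of the family with an FPKM of at least 2 in either library. Its FPKM was 2.30 in WT against 1.07 in the library labelled Eed-/-, which stood for about 63.7 and 26.1 fragments. The level in WT was 2.15-fold that in the other library as deposited. On the log2(FPKM + 1) scale the change was -0.63, not past 2-fold, since the pseudocount weighs on values this low, and with a pseudocount of 0.01 it was -1.03. The interval, -1.67 to -0.28, was the second widest of the 10. The RNA measured is that made by the cells, whereas the LIF in the medium was the same by protocol.

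The receptor chains were slightly higher in the library labelled Eed-/-. Lifr, the LIF-binding chain on chr15:7079559-7147489, plus strand, had an FPKM of 22.4 in WT against 24.9 in the other library, with a change of 0.34 and an interval of 0.22 to 0.42. Il6st, the gene of the shared signalling chain gp130 on chr13:113265216-113297068, plus strand, had an FPKM of 11.0 and 12.5, with a change of 0.31 and an interval of 0.15 to 0.55. Both chains kept their proportion: Lifr was at 2.04 times the level of Il6st in WT and at 2.00 times in the library labelled Eed-/-. Of the 10 genes, Lifr was the best counted, with about 1528 and 1503 fragments. The ratio of receptor to ligand RNA, Lifr over Lif, was 9.73 in WT against 23.3 in the library labelled Eed-/-.

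Jak1 had the largest positive change of the 10 genes. It encodes the main Janus kinase of gp130 signalling and lies on chr4:100824972-100937887, minus strand. Its FPKM was 11.1 in WT against 16.1 in the library labelled Eed-/-, a 1.46-fold higher level, with a change of 0.65 at the 89.8th percentile of the genes used and an interval of 0.51 to 0.90. The opposite-strand neighbour Raver2, which overlaps Jak1 and encodes an RNA-binding protein, was at 2.93 and 4.38, and Gm12785 overlaps Jak1 on the same strand. Whether the authors' counting used strand is not given in the sources used here, so reads of overlapping genes may be shared.

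Jak2, the second kinase, on chr19:29326318-29387570, plus strand, was the lowest of the 10 genes in both libraries. Its FPKM was 0.767 in WT against 0.938 in the library labelled Eed-/-, from about 26.8 and 28.9 fragments, and its interval of -0.36 to 1.26 held 0. A difference in Jak2 was not detectable at this depth. Jak1 RNA was at 14.4 times the level of Jak2 in WT and at 17.2 times in the library labelled Eed-/-.

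Stat3, on chr11:100746412-100800854, minus strand, had nearly equal values. Its FPKM was 20.7 in WT against 20.3 in the library labelled Eed-/-, with a change of 0.15 and an interval of -0.01 to 0.27. The sign depended on scaling, since the difference was -0.03 for the values as deposited. Stat5a, which overlaps Stat3 on the other strand, was at 0.635 and 0.814. The genes with the nearest pair of values in the whole table were Metap2 at 20.8 and 20.2, Crk at 20.9 and 20.2, and Ctnnd1 at 20.9 and 20.2, within 0.02 in log2 units over 2 libraries.

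Socs3, on chr11:117827393-117831361, minus strand, had the highest RNA level of the 10 genes in both libraries. Its FPKM was 59.6 in WT against 53.1 in the library labelled Eed-/-, from about 1019 and 801 fragments. The change was 0.06 and the interval, -0.14 to 0.13, held 0. The sign again depended on scaling, with -0.16 for the values as deposited. Socs3 RNA was at 2.88 times the level of Stat3 in WT and at 2.62 times in the other library. Thus a STAT3 target that encodes the inhibitor was at closely similar levels where the target Pim1 was not.

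**Figure D1:**
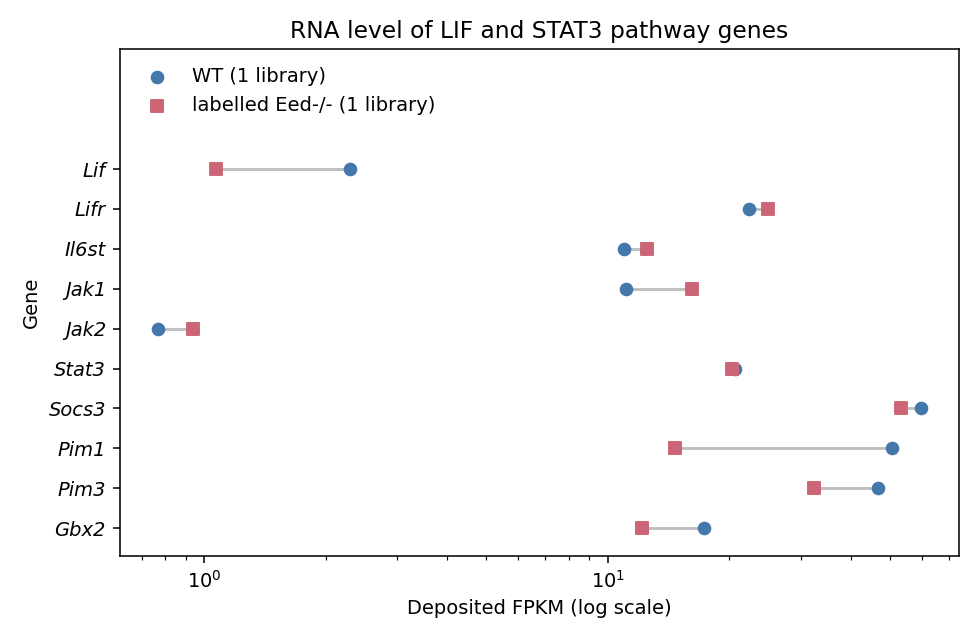
The deposited FPKM of each gene on a log axis, with circles for the WT library and squares for the library labelled Eed-/-. The line for Pim1 is the longest, from 50.5 to 14.7, followed by that of Lif, while the symbols of Stat3 lie on each other.

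The 10 genes spanned a wide range of levels. In WT the order from the highest was Socs3, Pim1, Pim3, Lifr, Stat3, Gbx2, Jak1, Il6st, Lif and Jak2. In the library labelled Eed-/- it was Socs3, Pim3, Lifr, Stat3, Jak1, Pim1, Il6st, Gbx2, Lif and Jak2. The move of Pim1 from the second to the sixth place was the largest, and Socs3, Lif and Jak2 kept their places. With no spread between cultures, whether neighbours in this order differ could not be tested. Several were close, such as Jak1 at 11.1 and Il6st at 11.0 in WT, and Il6st at 12.5 and Gbx2 at 12.2 in the other library.

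Of the 10 genes, 1 (Pim1) was at least 2-fold lower in the library labelled Eed-/-, while 0 were at least 2-fold higher. Among all 14835 genes used, 3.98% were at least 2-fold lower and 3.8% at least 2-fold higher, together 7.78%. The median change of the 10 was 0.11, beside 0.01 over all genes used, with 6 above 0 and 4 below. By the counting intervals, 3 lay above 0 (Lifr, Il6st and Jak1), 4 below (Lif, Pim1, Pim3 and Gbx2) and 3 held 0 (Jak2, Stat3 and Socs3). Such intervals leave out the spread between cultures and exclude 0 for many genes at these levels. Over the 12972 genes used that had an interval, 25.1% lay above 0 and 23.1% below, together 48.2%. Over the 8528 of these with a mean FPKM of 2 or more, as 8 of the 10 genes have, the shares were 29.3% above and 29.9% below, together 59.1%. The 7 of 10 can be set beside these shares only roughly, since Lif, which is among the 7, and Jak2 had a mean FPKM below 2. Whether it exceeds them was not tested. The plot of changes on 3 scales shows these 7 genes and Jak2 on 1 side of 0 on each scale, and Stat3 and Socs3 on both sides of it.

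**Figure D2:**
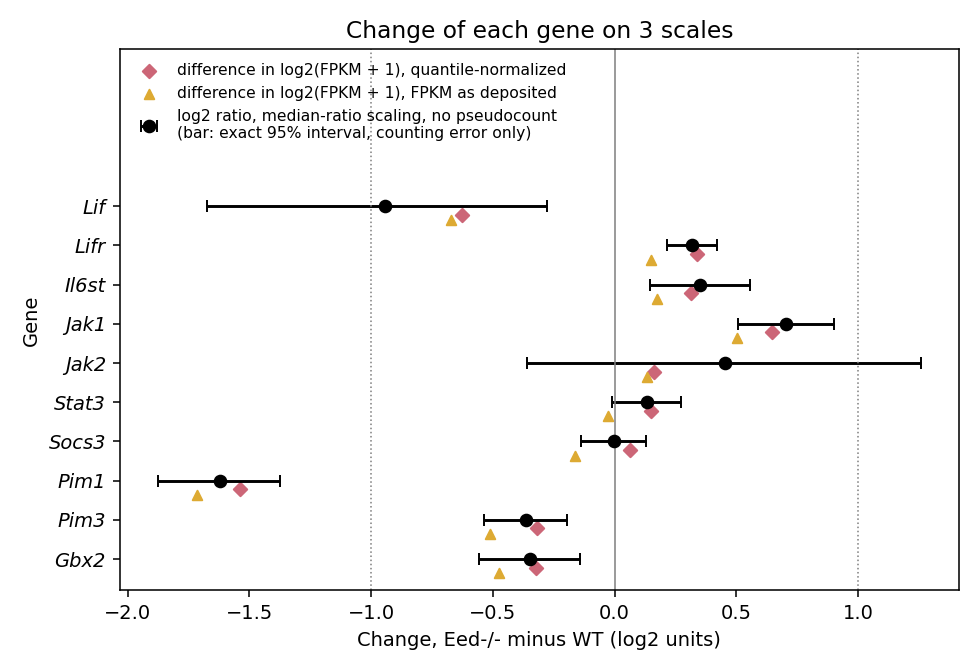
The difference between the libraries for each gene in log2 units, Eed-/- minus WT, as the quantile-normalized difference (diamonds), the difference of the deposited FPKM (triangles) and the log2 ratio without a pseudocount (circles, with bars for the exact 95% interval of counting error). Dotted lines mark 2-fold, which Pim1 alone passes with its whole interval.

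**Figure D3:**
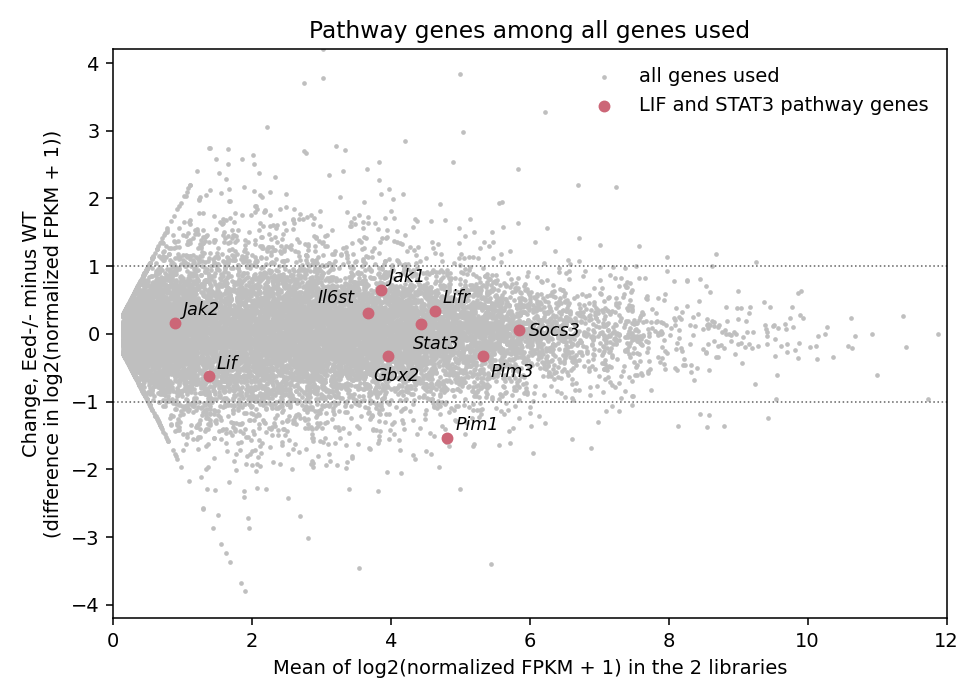
The change of each gene used (grey) against its mean log2(normalized FPKM + 1), with the 10 genes in red and dotted lines at 2-fold, and with 69 of 14835 genes outside the axes. Pim1 lies below the lower line, and the other 9 lie among the bulk of genes at their level.

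The promoter windows of the 10 genes, each 300 bases from 250 before to 50 after a RefSeq start, were compared with those of all genes. There were 12 windows for the 10 genes, since Lifr and Pim1 have 2 starts each, among 32851 windows with a median of 7 CpG dinucleotides. Pim1 had 42 in the window of its upstream start, the 97.0th percentile, and 5 in the other. The window of Lif held 7, equal to the median of all windows, and was the poorest in CpG among the genes with a single window. In the other genes the richest window held from 15 CpG dinucleotides in Stat3 to 53 in Lifr. TTCNNNGAA, which equals its own reverse complement, was found in 8.30% of all windows and in 1 of the 12, that of Socs3, where it begins 154 bases before the start. The stricter TTCCNGGAA, whose matches are also matches to the first motif, was in 1.15% of all windows and in none of the 12. These are matches of letters in a short window and not evidence of binding, and no match says only that these letters are not in the window.

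**Figure D4:**
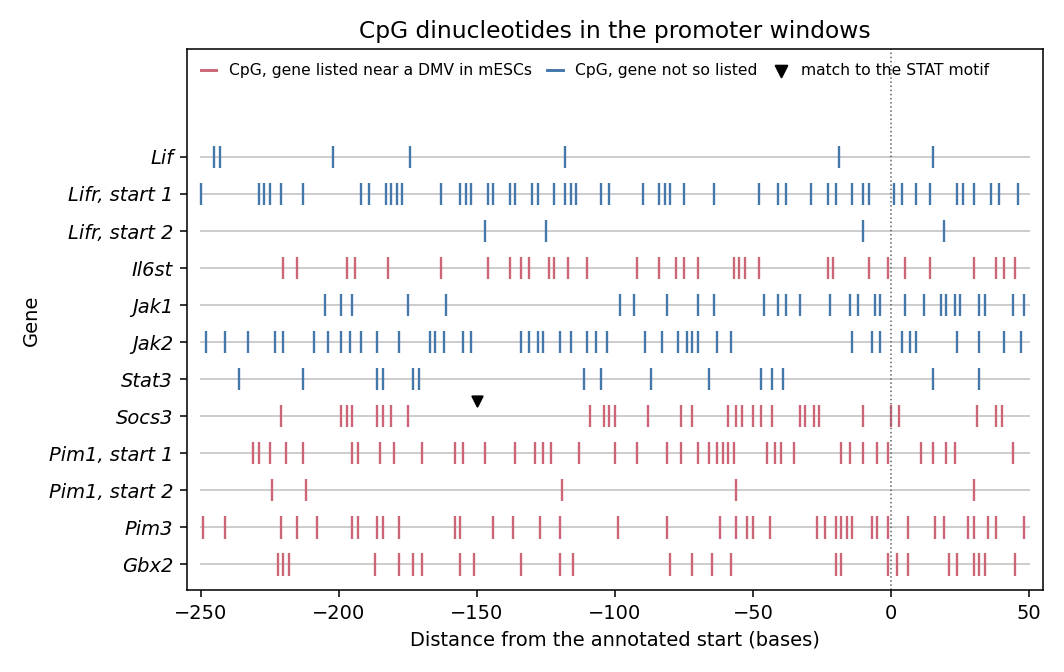
Positions of CpG dinucleotides (ticks) in the 12 promoter windows, in bases from the annotated start, with red for genes listed near a DMV in mESCs, blue for other genes and a triangle for the STAT motif match in Socs3. Lif, the second start of Lifr and the second start of Pim1 hold few ticks.

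In the authors' list of coding genes near DMVs in mESCs, Il6st, Socs3, Pim1, Pim3 and Gbx2 were present and Lif, Lifr, Jak1, Jak2 and Stat3 were absent. The 5 listed genes had a median change of -0.32, with 1 at least 2-fold lower, and the 5 others a median of 0.16, with 0 past 2-fold. Over the 1586 mESC DMV genes used, the median was 0.01, with 67 at least 2-fold higher (4.22%) and 76 at least 2-fold lower (4.79%). These shares were near those of all genes used, 3.8% higher and 3.98% lower, and groups of 5 genes are too small to set against them. The listed genes among the 10 were on both sides of 0, with Il6st above and Pim1, Pim3 and Gbx2 below. Socs3, at 0.06, had a sign that depended on scaling and an interval that held 0.

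The other 85 genes of the pathway and its relatives were taken from lists of ligands, receptors, kinases, inhibitors, adaptors and targets. Of these, 69 were used, 3 were at least 2-fold higher (4.35%) and 2 at least 2-fold lower (2.90%), shares near those of all genes. Their median change was -0.02. The genes past 2-fold were Cntf, Il13ra1 and Yes1 on the higher side and Jak3 and Socs2 on the lower.

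Apart from Lif, RNAs of the cytokines of the gp130 family and its relatives were scarce. All 11 other ligand genes were below 2 FPKM in each library, and 8 were used, with a median change of -0.21. Ctf1, which encodes cardiotrophin, was at 1.77 in WT against 1.31 in the library labelled Eed-/-. Cntf, the ciliary neurotrophic factor gene, was at 8.61e-12 and 1.81, with a change of 1.50. Cntf overlaps Zfp91 on the same strand, and the read-through symbol Zfp91Cntf showed the reverse, 1.08 and 5.77e-05, while Zfp91 was at 11.6 and 11.8. The split of reads among these 3 symbols is therefore uncertain.

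The other receptor chains of the gp130 family and its relatives were likewise low, with all 8 below 2 FPKM in each library. The median change of the 4 used was -0.13, and none reached 2-fold on the log2(FPKM + 1) scale, although Il6ra and Cntfr did with a pseudocount of 0.1. Cntfr, the CNTF-binding chain, was at 1.31 in WT against 0.345 in the library labelled Eed-/-, Il11ra1, the interleukin-11 chain, at 0.873 and 0.686, and Il6ra, the interleukin-6 chain, at 0.131 and 0.833. Lifr was therefore the only ligand-specific chain of the family with an FPKM of at least 2. Of 25 other cytokine receptor genes, 16 were used with a median change of 0.29, and 21 were under 2 in both libraries. The interferon receptor chains Ifnar2 and Ifnar1 were at 5.86 and 9.10, and at 4.66 and 5.54, and Crlf2, the thymic stromal lymphopoietin chain, at 2.88 and 3.91. Ifnar2 overlaps Il10rb on the same strand, which was at 0.661 and 0.185, so reads may be shared between them. Il13ra1, on chromosome X and shared by the interleukin-4 and interleukin-13 receptors, was at 0.355 and 2.65, a change of 1.47.

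Of 8 other JAK and STAT genes, 1 was at least 2-fold lower and 0 higher, with a median of -0.19. Jak3, the kinase of the common gamma chain receptors on chromosome 8, was at 7.04 in WT against 1.49 in the library labelled Eed-/-, a change of -1.61 with an interval of -2.61 to -1.56. It overlaps Insl3 on the same strand, which was at 7.69e-05 and 0.605. Stat6 was at 5.19 and 4.70, and Stat4, on chromosome 1, at 6.57 and 2.88, a change of -0.85. The highest value of any other STAT gene was thus that of Stat4 in WT, below the values of Stat3 in both libraries.

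The inhibitors had a median change of 0.04 over 15 genes, with 1 at least 2-fold lower. Socs2, a SOCS family member known as an inhibitor of growth hormone signalling, was at 31.7 in WT against 11.1 in the library labelled Eed-/-, a change of -1.27 with an interval of -1.54 to -1.16. The interval of its relative Socs3 held 0 and did not overlap that of Socs2. Pias2, a SUMO ligase that binds STAT proteins, was at 35.0 and 32.3, and Ptpn2, a phosphatase of JAKs and STATs, at 30.2 and 32.9. Among 6 adaptors and kinases, with a median of 0.12, the SRC family kinase gene Yes1 was at 14.8 and 35.4, a change of 1.36 with an interval of 1.26 to 1.59. The adaptor genes Gab1, on chromosome 8, and Grb2 had values of 41.3 and 24.2, and of 19.5 and 25.2.

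The 10 further genes known as STAT3 targets in mESCs or other cells gave values in both directions. No gene of the list was past 2-fold on the log2(FPKM + 1) scale, the median change was -0.22, 4 were above 0 and 6 below. With a pseudocount of 0.1, Klf4 on the higher side and Cebpd on the lower were past 2-fold, and with 0.01 Cebpb on the lower side as well. Cebpd, named after its values were seen, was at 2.16 in WT against 0.600 in the library labelled Eed-/-, a change of -0.94. Klf4, a pluripotency transcription factor, was just short of 2-fold, at 25.5 in WT against 44.4 in the library labelled Eed-/- with a change of 0.99. Tfcp2l1, another, was at 34.0 and 37.8, and the survival gene Mcl1 at 97.3 and 78.2. Of the 8 with an interval, 2 lay above 0, namely Klf4 and Klf5, and 5 below, namely Mcl1, Myc, Junb, Bcl3 and Cebpb. All of these but Klf4 and Mcl1 are named after their values were seen. Junb is on chromosome 8, whose genes had a median change of -0.38, and its own change was -0.73. Over all other pathway genes with an interval, 16 of 76 lay above 0, 14 below and 46 held it. Over all genes used with an interval, the shares were 25.1% above and 23.1% below, and at 2 FPKM or more 29.3% and 29.9%. Neither set is fully like the 76, which include genes too low to be used, such as Lepr. Of the 85 other pathway genes, 46 were under 2 in both libraries, and intervals of weak genes are wide. With the 3 targets among the 10 genes and Socs3, the list of STAT3 targets thus held genes at higher, lower and closely similar levels. The plot of changes by role shows this spread and the single genes outside 2-fold.

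**Figure D5:**
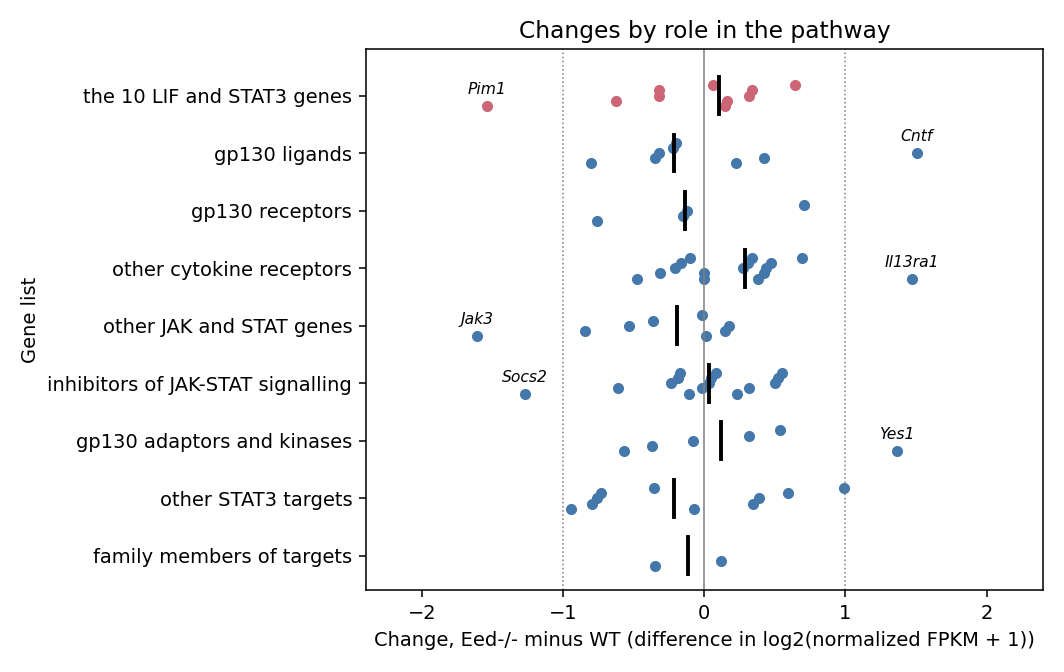
The change of each gene used, Eed-/- minus WT in log2(normalized FPKM + 1), for the 10 genes (red) and for 8 lists of other pathway genes (blue), with black bars for medians and dotted lines at 2-fold. The medians lie between -0.22 and 0.29, and the 6 named genes are those past 2-fold.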

How the data were processed

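RNA-seq libraries of WT and Eed-/- mESCs were strand-specific and made from total RNA depleted of ribosomal RNA. The authors mapped reads to mm9 with TopHat and deposited FPKM per gene symbol from Cufflinks. The submitters' processing notes name Bowtie2 2.2.2, TopHat2 2.0.11, Cufflinks 2.2.1 and BSMAP. The annotation and options used for quantification are not given in the sources used here. The methylation, ChIP and 4C data of the series were not analysed here.

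Each table holds 24525 values, and where a symbol recurred (268 symbols) its values were added. Both libraries were brought to the same quantiles, changes were differences of log2(FPKM + 1), and genes were used if their normalized FPKM averaged at least 0.1. Without replicates, no test was made. Depth came from the steps of low FPKM in 5053 genes with 1 transcript, with 180 bp taken off each length: 80.3% of 772 low values in WT and 81.7% of 872 in the other library were within 0.1 of a whole number of fragments. For genes with more than 1 transcript the fragment numbers are approximate.

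Positions (mm9, also named NCBIM37) and transcript lengths were read from GENCODE vM1, and promoters from RefSeq on GRCm38.p6, which matched all 10 genes. Copies were sought with minimap2 2.31, and none of the 10 genes had one covering at least 80% of the transcript at 95% identity. The genes and lists were chosen with earlier results of these data known. Named besides the 10 were other pathway genes past 2-fold, the 3 highest by mean normalized FPKM in each list, the marker with the largest change in each marker list, and the 3 genes nearest to Stat3, Lif and Socs3 in both values. Not every gene selected this way is reported here. Computations used scipy 1.17.1, pandas 2.3.3, numpy 2.4.6 and Python 3.11.15, figures used matplotlib 3.10.9, and the scripts were tested on simulated data. There were 9 alternatives: median-ratio scaling, unscaled deposited values, pseudocounts of 0.1 and 0.01, a minimum mean of 1 or no filter, recurring symbols left out, small non-coding RNAs left out, and a 3-fold threshold.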

Additional observations from a re-analysis of the deposited data

How the results depend on the processing

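With 1 library per genotype, no replicate could be left out. No paired analysis was possible because each genotype has 1 sample. Of 131 values recomputed under 9 alternatives, 119 were scored as close to those reported. A gene's change was close if it stayed within a range as wide as its counting interval. The median of the 10 genes was close within -0.63 to 0.34. Its value of -0.10 for the deposited FPKM therefore passed, despite the opposite sign of the reported 0.11. The alternatives that alter only the filter on low values leave the change of each gene kept as it was. Those values could not move and say nothing about stability. With pseudocounts of 0.1 and 0.01, the other pathway genes at least 2-fold higher numbered 6 and 9 instead of 3, and those at least 2-fold lower 11 and 13 instead of 2. With 0.01, 2 of the 10 genes were at least 2-fold lower, namely Pim1 and Lif. At a 3-fold threshold, 0 of the 10 genes and 0 other pathway genes on the higher side passed, and 1 (Jak3) on the lower. For the deposited FPKM, Lifr was at 0.15, Stat3 at -0.03, Socs3 at -0.16 and Pim3 at -0.51, and the median of the 10 genes was -0.10. Pim1 ranged from -1.72 to -1.54 over its 8 alternatives. Over all genes, 564 were at least 2-fold higher and 590 lower, against 455 and 801 for the deposited FPKM, 1694 and 1778 with a pseudocount of 0.1, 1914 and 1989 with 0.01, and 152 and 137 at 3-fold. Deposited values moved the median of all genes to -0.09. A mean of at least 1 removed Jak2, which then had no value.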

Other observations

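The genes whose 2 values were nearest to those of Lif were Ntf5, a neurotrophin, at 2.32 in WT against 1.13 in the library labelled Eed-/-, Clip2, a microtubule-linked protein, at 2.20 and 1.05, and Fuom, a fucose mutarotase, at 2.24 and 1.00. Nearest to Socs3 were Dnttip2 at 58.9 and 52.8, the spindle checkpoint gene Bub3 at 60.3 and 52.4, and the translation initiation factor gene Eif1 at 58.6 and 54.0. With 2 libraries, likeness says only that both levels are close, and many genes share such values.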
